A study of Mus musculus with 4 samples.

Results

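TRAV17, TRAV19 and TRAV21/DV12 are 3 V segments at the 3′ end of the TCRα V array, the end that faces the J segments. A clone was counted for one of them when that segment was the first V segment listed for it, and this gave 6122 of the 189388 TCRα clones in 4 libraries. TRAV21/DV12 had 3649 of these clones, TRAV19 had 2327 and TRAV17 had 146. The libraries come from splenic T cells sorted as CD4+ CD25- TCRβ+ cells that did not bind the αGalCer-CD1d tetramer, which marks invariant natural killer T cells. The mice had an average age of 25 days. There were 2 wild type (WT) libraries, labelled as biological replicates, and likewise 2 Tet2/3 DKO libraries from Tet2-/- Tet3 flx/flx CD4Cre mice. In the latter mice Tet2 is deleted in the germline, and Tet3 is deleted by a Cre under control of Cd4 from the double positive thymocyte stage on, the stage at which TCRα rearranges. The question was whether chains built from these J-proximal V segments used the same J segments as other chains, in and out of frame, and in both genotypes. The tables hold TCR clones only, so markers of the sorted cells could not be checked.

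A TCRα chain is made when the RAG recombinase joins a V segment to a J segment in double positive thymocytes. Joining starts with V and J segments that face each other across the shortest stretch of DNA, and a cell that does not make a chain able to be selected can rearrange the same allele again, joining a V segment farther upstream to a J segment farther downstream. The TRAJ segments are numbered downwards from the V side, so that a high TRAJ number means a J segment near the V array and a low number one near the constant region. A join that is out of frame makes no protein and is not selected for its product, but its transcript can be sequenced from a cell whose other allele made the receptor.

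In the RefSeq annotation of GRCm38.p6 (mm10), Trav17 is at chr14:53806639-53807115, Trav19 at chr14:53845322-53845827 and Trav21-dv12 at chr14:53876016-53876752, all annotated as V segments. They end 350 kb, 311 kb and 281 kb before Traj58. Trav1 and Trav2, at the other end of the array, end 1728 kb and 1589 kb before it. Trav18 lies between Trav17 and Trav19, and Trav20, Trav22 and Trav23 are pseudogene segments among or downstream of the 3. TRAV18 was the first V segment of 43 clones, TRAV20 of 224, TRAV23 of 22 and TRAV22 of 0, and all of these were counted among the other TRAV.

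The V part of each segment is shown as it was assembled in WT replicate 1, from the start of framework region 1, because it decides which clones are counted. The capitals mark the bases that belong to the CDR3, the loop that the V-J junction encodes.
TRAV17: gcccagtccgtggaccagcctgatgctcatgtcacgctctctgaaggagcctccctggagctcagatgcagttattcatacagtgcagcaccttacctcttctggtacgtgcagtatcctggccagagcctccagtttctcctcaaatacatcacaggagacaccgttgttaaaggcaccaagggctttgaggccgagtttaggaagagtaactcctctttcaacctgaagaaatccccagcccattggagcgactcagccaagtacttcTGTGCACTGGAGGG
TRAV19: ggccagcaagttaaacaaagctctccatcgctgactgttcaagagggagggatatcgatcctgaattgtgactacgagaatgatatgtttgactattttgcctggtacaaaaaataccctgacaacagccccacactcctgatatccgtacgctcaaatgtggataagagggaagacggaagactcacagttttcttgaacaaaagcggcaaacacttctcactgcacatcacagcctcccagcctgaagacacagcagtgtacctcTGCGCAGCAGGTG
TRAV21/DV12: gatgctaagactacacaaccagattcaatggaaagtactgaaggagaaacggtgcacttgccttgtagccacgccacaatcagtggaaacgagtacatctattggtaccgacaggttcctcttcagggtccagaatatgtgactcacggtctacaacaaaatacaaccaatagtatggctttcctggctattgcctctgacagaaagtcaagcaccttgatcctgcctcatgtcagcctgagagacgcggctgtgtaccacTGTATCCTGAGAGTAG

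The 3 sequences are 51.0% to 51.8% identical to each other in pairwise alignment. Of their 6122 clones, 0 listed a further V segment, whereas 48.2% to 49.03% of the other TRAV clones of a library did so. In each library 72.5% to 81.7% of the clones of each segment matched the V reference without a mismatch. TRAV17 leaves 14 bases of the CDR3, TRAV19 leaves 13 and TRAV21/DV12 leaves 16 when untrimmed. The most abundant untrimmed V part was the same in both genotypes for TRAV19. For TRAV17 it ran 2 bases longer in Tet2/3 DKO replicate 1, and for TRAV21/DV12 it ran 1 base longer in Tet2/3 DKO replicate 2. In both cases the extra bases lay at the junction, at the end of the CDR3 part, and the sequence before them was the same as in WT. The other Tet2/3 DKO library had the same V part as the WT libraries, so these bases do not show a different V segment in Tet2/3 DKO.

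The libraries held 172506 and 216457 TCRα reads in the WT libraries and 195046 and 287799 in Tet2/3 DKO. The 3 segments together made up 1229 and 1521 WT clones and 1575 and 1797 Tet2/3 DKO clones, and 4 to 7 of these per library had no CDR3 and could not be placed in or out of frame. Deposited clones that shared the V segment, the J segment and the CDR3 nucleotide sequence were taken as 1 rearrangement, which left 1104, 1369, 1431 and 1560 rearrangements of the 3 segments and 32753 to 43723 of other TRAV. The kit adds no molecular identifiers, so intervals on shares of reads cover counting error only.

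TRAV19 and TRAV21/DV12 joined TRAJ segments much nearer to the V array than other TRAV did, in frame and out of frame alike. In frame, the mean TRAJ number of TRAV21/DV12 was 48.4 and 49.8 in the WT libraries and 49.5 and 49.4 in Tet2/3 DKO. For TRAV19 it was 48.8 and 48.7 in the WT libraries and 48.8 and 48.8 in Tet2/3 DKO. The mean of the other TRAV was 28.6, 28.4, 28.3 and 27.9 in the same order. Every library of both segments lay far above every library of the other TRAV, and the libraries of TRAV19 were almost equal.

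TRAV17 stood lower than TRAV19 and TRAV21/DV12. Its in-frame mean was 42.4 and 46.97 in the WT libraries and 44.2 and 44.8 in Tet2/3 DKO, from only 20 to 30 in-frame rearrangements per library. These values did not overlap with those of the other 2 segments. TRAV1, the segment farthest from the J array, had means of 25.6, 24.6, 24.6 and 22.8, and TRAV2, its neighbour, 25.3, 26.8, 23.1 and 22.7.

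Pooled over the 3 segments, the in-frame mean exceeded that of other TRAV of the same library by 20.7 ± 0.645 TRAJ numbers (SD, n = 4), with differences of 19.8 to 21.3. The difference was 21.0 ± 0.789 for TRAV21/DV12, 20.5 ± 0.318 for TRAV19 and 16.3 ± 1.98 for TRAV17. Each was positive in 4 of 4 libraries. The exact two-sided sign-flip permutation test over the 4 libraries gave p = 0.125, the smallest p that 4 libraries allow (0.176 after Benjamini-Hochberg adjustment over 38 such tests), so that no within-library difference of this kind could pass 0.05.

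Out of frame, the 3 segments together had 119, 154, 182 and 221 rearrangements. Their mean TRAJ number was 46.8 and 47.3 in the WT libraries and 47.8 and 47.6 in Tet2/3 DKO, against 28.0 to 28.6 for the other TRAV. The difference of 19.0 ± 0.650 (SD, n = 4) was positive in 4 of 4 libraries (exact sign-flip permutation test, two-sided, p = 0.125). By segment it was 19.8 ± 0.840 for TRAV19, 18.8 ± 0.790 for TRAV21/DV12 and 11.005 ± 2.54 for TRAV17, the last from 3 to 10 out-of-frame rearrangements per library.

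**Figure D1:**
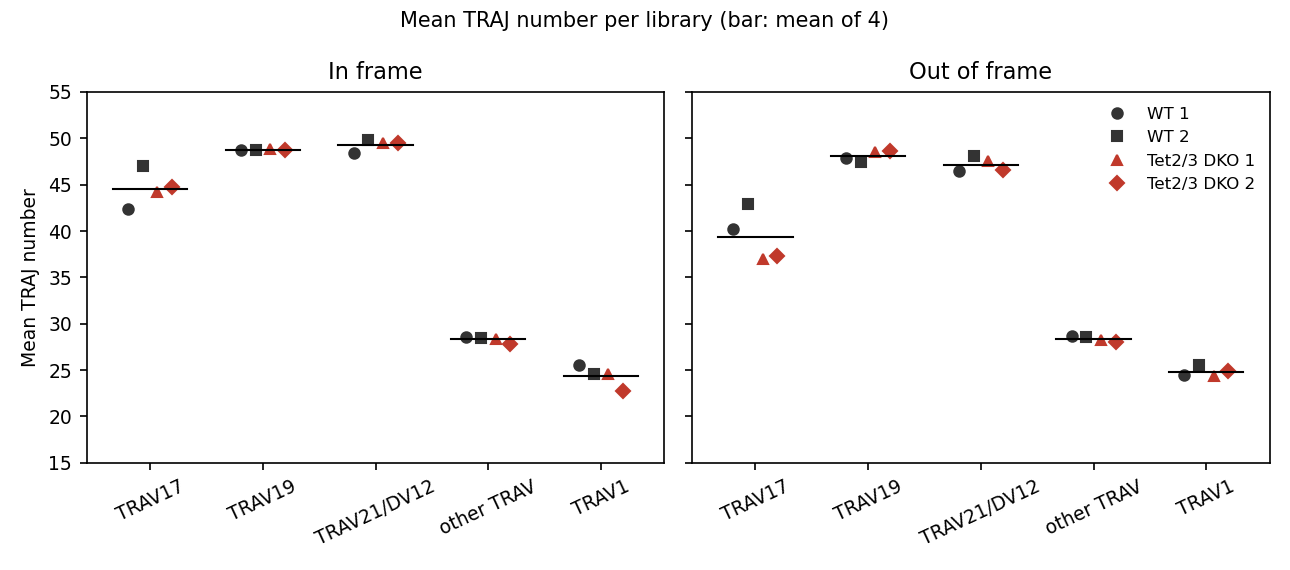
Mean TRAJ number (vertical axis) of the distinct rearrangements of each V segment, in frame (left) and out of frame (right), with 1 point per library and a line at the mean of the 4 libraries. TRAV19 and TRAV21/DV12 sit between 46.4 and 49.8 in both panels, TRAV17 between 37 and 46.97, and the other TRAV between 27.9 and 28.6.

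Within the 3 segments the in-frame joins were slightly closer to the V array than the out-of-frame joins. The difference was 1.61 ± 0.259 TRAJ numbers pooled (SD, n = 4), in 4 of 4 libraries, while in other TRAV it was -0.037 ± 0.109. The difference between these differences was 1.65 ± 0.344, again in 4 of 4 libraries (exact sign-flip permutation test, two-sided, p = 0.125). The difference was 2.11 ± 0.514 in TRAV21/DV12 and 0.661 ± 0.545 in TRAV19. For TRAV17 it was 5.23 ± 2.52, with too few out-of-frame rearrangements to place it well.

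The J segments were next compared 1 at a time with edgeR, with the rearrangements of the 3 segments set against those of other TRAV in the same library. In frame, 13 of 43 TRAJ segments tested (30.2%) had a higher share in the 3 segments and 29 (67.4%) a lower share at an adjusted p under 0.05, and TRAJ40 alone did not pass. All 8 TRAJ segments from TRAJ48 upwards were higher. Of the 9 between TRAJ37 and TRAJ47, 5 were higher, 3 were lower and 1 did not pass. All 26 from TRAJ36 downwards were lower. The median log2 difference was 2.22 over TRAJ48 and up, 0.43 over TRAJ37 to TRAJ47, -2.51 over TRAJ25 to TRAJ36, -4.18 over TRAJ14 to TRAJ24 and -5.04 over TRAJ1 to TRAJ13, against -1.97 over all 43. The limits of these groups were set with earlier results of these data known.

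The order of the J segments was not simply that of their position. TRAJ57 took the largest part of the in-frame joins, with 16.6% and 17.8% in the WT libraries and 18.8% and 19.1% in Tet2/3 DKO, against 1.09% to 1.24% in other TRAV. The log2 difference was 3.95 ± 0.08 (SE, adjusted p = 3.31e-37). TRAJ58, one segment nearer to the V array, took 9.56%, 11.2%, 10.1% and 10.6%, against 0.660% to 0.805% in other TRAV, a log2 difference of 3.83 ± 0.10 (SE, adjusted p = 1.67e-34). TRAJ57 was above TRAJ58 in all 4 libraries.

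TRAJ56 took 12.1%, 13.9%, 14.4% and 13.6% of the in-frame joins of the 3 segments, against 1.29% to 1.48% in other TRAV, a log2 difference of 3.30 ± 0.09 (SE, adjusted p = 4.40e-33). TRAJ53 took 4.33% to 5.80% and differed by 2.53 ± 0.12 (SE, adjusted p = 1.41e-23). TRAJ49 took 7.10% to 9.87%, more than TRAJ53, TRAJ52, TRAJ50 or TRAJ48 in every library, and differed by 1.91 ± 0.11 (SE, adjusted p = 2.22e-20). It was the most frequent of the 8 in other TRAV, at 2.25%. TRAJ49 thus formed a separate peak within the high TRAJ numbers.

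The 4 largest measured falls were at the far end of the J array. TRAJ12 had 2 rearrangements in the 3 segments and 4621 in other TRAV, and the share in other TRAV was 82.7 times higher (95% exact interval 22.9 to 683). TRAJ9 had 3, and the ratio was 47.8 (16.4 to 232). TRAJ7 had 2, with a ratio of 40.9 (11.3 to 338), and TRAJ6 had 3, with a ratio of 33.3 (11.4 to 162). TRAJ13, with 4, and TRAJ21, with 7, followed with ratios of 30.1 and 27.4. TRAJ5, which the fit placed lowest, had 0 of 4778 in-frame rearrangements of the 3 segments and 0.508% of those of other TRAV, a share at least 8.05-fold higher in other TRAV when 3 rearrangements are taken as the floor over the group, and its rank is not known. These intervals cover counting error only.

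**Figure D2:**
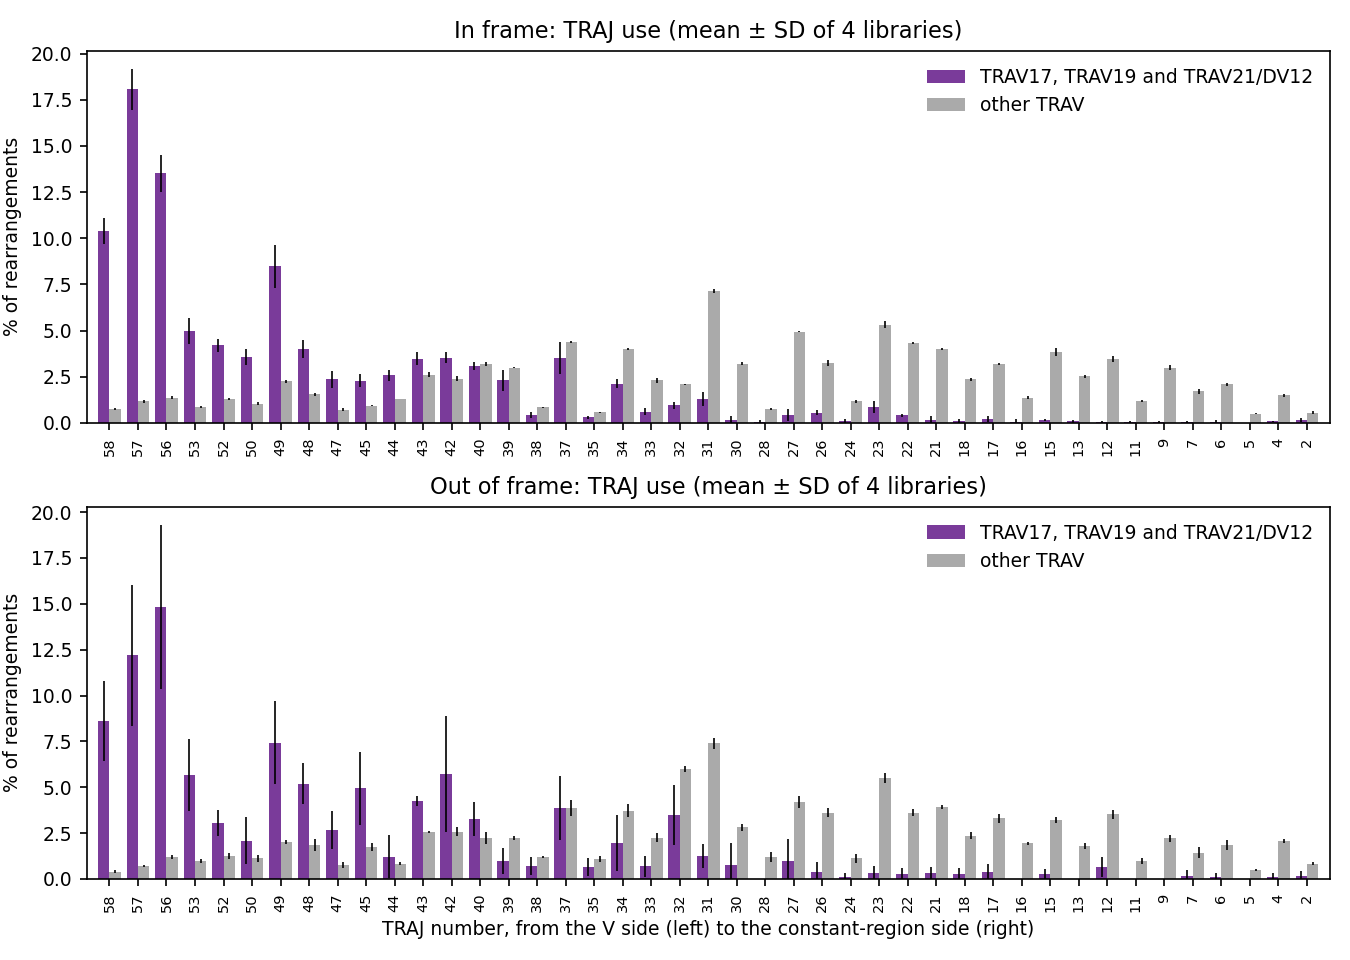
Share of distinct rearrangements (vertical axis, %) that used each TRAJ segment tested (horizontal axis, from the V side to the constant-region side), in frame (top) and out of frame (bottom), for TRAV17, TRAV19 and TRAV21/DV12 pooled and for other TRAV, with bars at the mean and lines at ± SD of 4 libraries. TRAJ57 reaches 18.1% in frame and TRAJ56 reaches 14.8% out of frame in the 3 segments, against 1.17% and 1.20% in other TRAV.

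Out of frame there were 676 rearrangements of the 3 segments in all, and TRAJ56 rather than TRAJ57 took the largest share. Of 43 TRAJ segments, 12 (27.9%) were higher and 23 (53.5%) lower in the 3 segments. All 8 from TRAJ48 upwards were again higher, with a median log2 difference of 2.16, against -2.25 over all 43. This count depended on the scaling. Of the segments called, 34.3% were higher as reported here, 25% with TMM factors (8 higher, 24 lower) and 12.1% with DESeq2 size factors (4 higher, 29 lower), and these scalings moved the median log2 difference over all segments by -0.55 and -1.24. With DESeq2 factors 6 of the 8 segments from TRAJ48 upwards were still above 0, and the 26 from TRAJ36 downwards were below 0 under all 3 scalings. In frame the corresponding counts were 14 higher and 25 lower with TMM, which moved the median by 0.43, and 13 higher and 26 lower with DESeq2.

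TRAJ58 took 8.601% ± 2.18 (SD, n = 4) of the out-of-frame joins of the 3 segments and 0.391% of those of other TRAV, a log2 difference of 4.42 (adjusted p = 4.69e-19). TRAJ57 took 12.2% ± 3.86, a log2 difference of 4.13 (adjusted p = 1.62e-27), and TRAJ56 took 14.8% ± 4.46, a log2 difference of 3.67 (adjusted p = 5.03e-31). In WT replicate 2 TRAJ57 was low out of frame, with 10 of 154 rearrangements, or 6.49%, against 13.1% to 14.8% in the other 3 libraries. TRAJ53, at 5.68% ± 1.96, and TRAJ49, at 7.43% ± 2.25, complete the 5 largest rises. Among the falls, TRAJ9, TRAJ16, TRAJ13, TRAJ28 and TRAJ11, which the fit placed lowest, had 0 of 676 rearrangements in the 3 segments. Their shares in other TRAV were at least 5.01-fold, 4.40-fold, 4.04-fold, 2.72-fold and 2.22-fold higher against the same floor, and these bounds give them no rank. Larger ratios were measured for segments with a few rearrangements, such as TRAJ23, with 2 in the 3 segments and a share 18.6 times higher in other TRAV (95% exact interval 5.13 to 153).

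The 3 segments did not have the same profile among themselves. In frame, TRAJ48 and up took 69.3% ± 1.95 of TRAV21/DV12 joins (SD, n = 4), 64.8% ± 2.10 of TRAV19 joins and 49.3% ± 9.81 of TRAV17 joins, against 10.3% ± 0.399 in other TRAV. The shares of TRAV17 ranged from 39.3% to 60.0% and did not reach those of TRAV19, which began at 63.1%. In TRAV1, 2 of 918 in-frame rearrangements used TRAJ48 or above, and in TRAV2 it was 0 of 200, which allows a share of up to 1.5%.

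TRAV19 used TRAJ57 in 18.8% and 18.9% of its in-frame joins in the WT libraries and 21.0% and 21.0% in Tet2/3 DKO, and TRAV21/DV12 in 16.2%, 17.5%, 17.9% and 18.4%. TRAV21/DV12 instead used TRAJ49 more, in 11.3%, 8.52%, 9.80% and 10.4%, against 6.85%, 4.94%, 5.08% and 5.74% in TRAV19. It also used TRAJ58 more, in 10.5% to 12.6% against 8.33% to 9.23%. For these 3 J segments the libraries of the 2 V segments did not overlap. The same held for TRAJ45, TRAJ44, TRAJ23 and TRAJ2, which TRAV21/DV12 used more. It also held for TRAJ43 and TRAJ42, which TRAV19 used more. TRAJ45 made 0.802% ± 0.372 of the TRAV19 joins and 3.15% ± 0.611 of the TRAV21/DV12 joins. TRAJ2 had only 6 rearrangements with TRAV21/DV12 and 0 with TRAV19. The libraries overlapped for TRAJ56, which made 14.7% ± 0.826 of the TRAV19 joins and 13.1% ± 1.90 of the TRAV21/DV12 joins.

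Out of frame, TRAJ53 made 32 rearrangements with TRAV19 and only 3 with TRAV21/DV12. In TRAV19 it took 13.1%, 10.5%, 8% and 5.04% of the out-of-frame joins, and in TRAV21/DV12 0%, 2.04%, 0% and 2.02%. In frame, TRAJ53 made 4.94% ± 1.15 of the TRAV19 joins and 4.87% ± 0.572 of the TRAV21/DV12 joins, which overlapped. This contrast was chosen after its values were seen and was not tested.

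TRAV17 had 106 in-frame rearrangements in all, and its most frequent J segment was TRAJ49, with 11. TRAJ57, the leading J segment of the other 2, had 6. Out of frame TRAV17 used TRAJ42 in 6 of 25 rearrangements. These counts are too low to order its J segments.

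Among the 85 TRAV segments with at least 100 rearrangements, TRAV21/DV12 and TRAV19 had the highest in-frame mean TRAJ numbers, 49.3 ± 0.594 and 48.8 ± 0.043 (SD, n = 4), and their libraries overlapped. TRAV14-3 at 45.3 ± 0.681 and TRAV13-4-DV7 at 45.0 ± 0.735 came next, although they lie 394 kb and 399 kb from Traj58. TRAV17, nearer at 350 kb, was in position 5 with 44.6 ± 1.88, and its libraries overlapped with those of both. The lowest mean was 20.0, in TRAV15D-2-DV6D-2. Out of frame TRAV19 and TRAV21/DV12 exchanged places, with 48.1 ± 0.570 and 47.2 ± 0.786, and TRAV17 was in position 12 with 39.4 ± 2.76. That position rests on 25 out-of-frame rearrangements.

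TRAV20, a pseudogene segment 294 kb from Traj58, between TRAV19 and TRAV21/DV12, gives a neighbour that is not used for receptors. Of its 196 rearrangements 67 were in frame, with a mean TRAJ number of 41.9 ± 2.38, and 128 were out of frame, with a mean of 44.2 ± 2.78. Both means were below those of the segments on either side. TRAV18, with 36 rearrangements, had an in-frame mean of 49.6 ± 5.82.

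**Figure D3:**
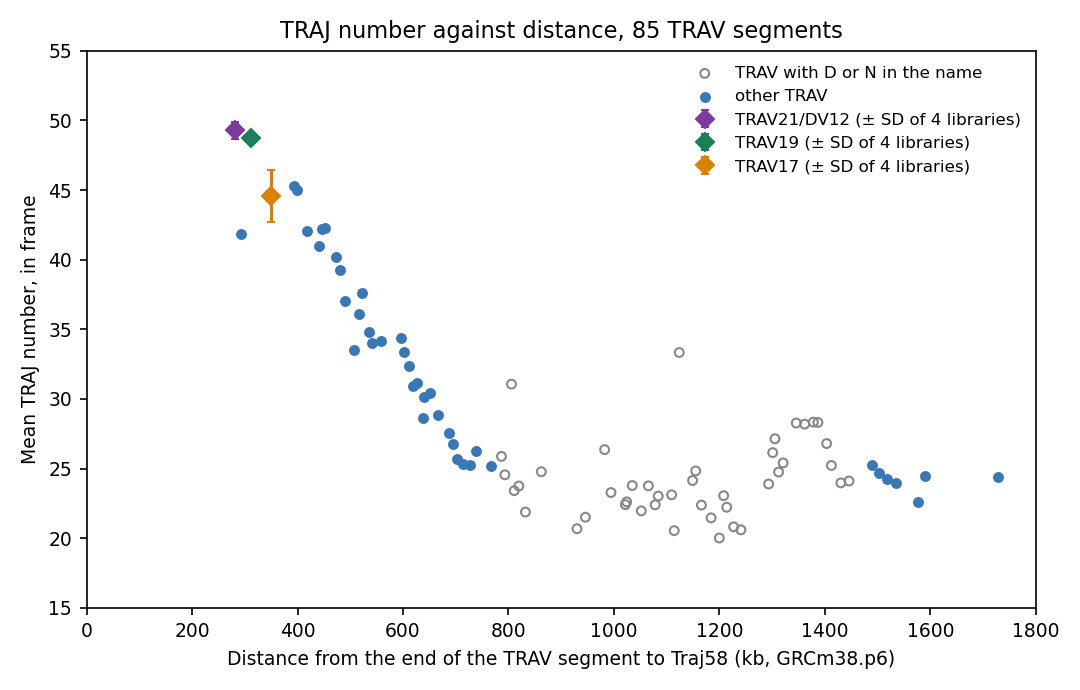
Mean TRAJ number of in-frame rearrangements (vertical axis) against the distance from the end of each TRAV segment to Traj58 (horizontal axis, kb, GRCm38.p6), with 1 point per TRAV segment and ± SD of 4 libraries for the 3 segments. TRAV21/DV12 and TRAV19 sit at the top left at 281 kb and 311 kb, and TRAV17 sits beside TRAV14-3 and TRAV13-4-DV7.

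Over the 85 segments the in-frame mean TRAJ number fell with distance, with a Pearson's r of -0.74 and a Spearman's rho of -0.69, and without the 3 segments with -0.71 and -0.66 over 82. Over the 42 segments whose names carry no D or N copy, r was -0.76 in both frames and rho was -0.98 in frame and -0.97 out of frame. These are descriptions across segments that share the same 4 libraries, and the segments in between are near copies of each other, to which reads could not always be assigned.

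The in-frame profiles were also compared by the Jensen-Shannon distance to 58 TRAV segments with at least 500 in-frame rearrangements, pooled over the 4 libraries. TRAV19 was nearest to TRAV21/DV12, at 0.176, then to TRAV14-3, at 0.209, and TRAV13-4-DV7, at 0.275. TRAV21/DV12 was nearest to TRAV19, then to TRAV14-3, at 0.242, and TRAV13-4-DV7, at 0.256. The smallest distances of TRAV17 were 0.273 to TRAV13-4-DV7, 0.293 to TRAV5-4 and 0.295 to TRAV14-3. TRAV17 itself had only 106 in-frame rearrangements, below the limit set for the segments compared. Its 3 distances can therefore not be ordered or set beside those of TRAV19 and TRAV21/DV12. The median distances to all segments compared were 0.704, 0.727 and 0.673 for TRAV19, TRAV21/DV12 and TRAV17, and the farthest from each was TRAV1.

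The segments differed in how often a rearrangement could make a chain. A productive rearrangement is in frame without a stop codon. For TRAV21/DV12 the productive share was 92.1% and 93.4% in the WT libraries and 91.0% and 89.6% in Tet2/3 DKO, above the 85.4% to 86.1% of other TRAV in every library, by 5.73 ± 1.58 percentage points (SD, n = 4). For TRAV19 it was 84.6%, 82.9%, 81.5% and 79.1%, below other TRAV in every library, by 3.76 ± 2.51 points. Both differences had the same direction in 4 of 4 libraries (exact sign-flip permutation test, two-sided, p = 0.125), and the libraries of the 2 segments did not overlap. TRAV17 had 80.0%, 75.0%, 82.4% and 87.0%, on both sides of other TRAV. The share was lower in both Tet2/3 DKO libraries than in both WT libraries for TRAV19 and for TRAV21/DV12, without overlap. For TRAV17 it went the other way, higher in both Tet2/3 DKO libraries, also without overlap, from 23 to 40 rearrangements per library. The libraries of other TRAV overlapped. These differences by genotype were seen in the values and were not tested. How many of all TRAV segments separate by genotype in this measure was not counted.

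Pooled, the opposite differences of TRAV21/DV12 and TRAV19 from other TRAV left 1.80 ± 1.62 points (exact p = 0.25), and 1.19 without WT replicate 1. When the other TRAV were weighted to the J segments of each segment, an alternative added after seeing the data, TRAV21/DV12 was still higher, by 4.33 ± 1.56 points, and TRAV19 lower, by 5.25 ± 2.33 points, each in 4 of 4 libraries, and the pooled value was 0.385. The rearrangements were counted in RNA, so that fewer out-of-frame rearrangements and less of their RNA cannot be told apart.

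The CDR3 of TRAV21/DV12 was longer than that of other TRAV. Its in-frame mean was 14.3 and 14.6 amino acids in the WT libraries and 14.6 and 14.6 in Tet2/3 DKO, against 13.4 in each library of other TRAV, a difference of 1.13 ± 0.129 (SD, n = 4). TRAV19 differed by 0.397 ± 0.0871 and TRAV17 by 0.495 ± 0.235, each in 4 of 4 libraries (exact sign-flip permutation test, two-sided, p = 0.125). At matched J segments the difference was 0.672 ± 0.0872 for TRAV21/DV12 and 0.225 ± 0.0937 for TRAV17, in 4 of 4 libraries, but -0.015 ± 0.0769 for TRAV19, with both signs.

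**Figure D4:**
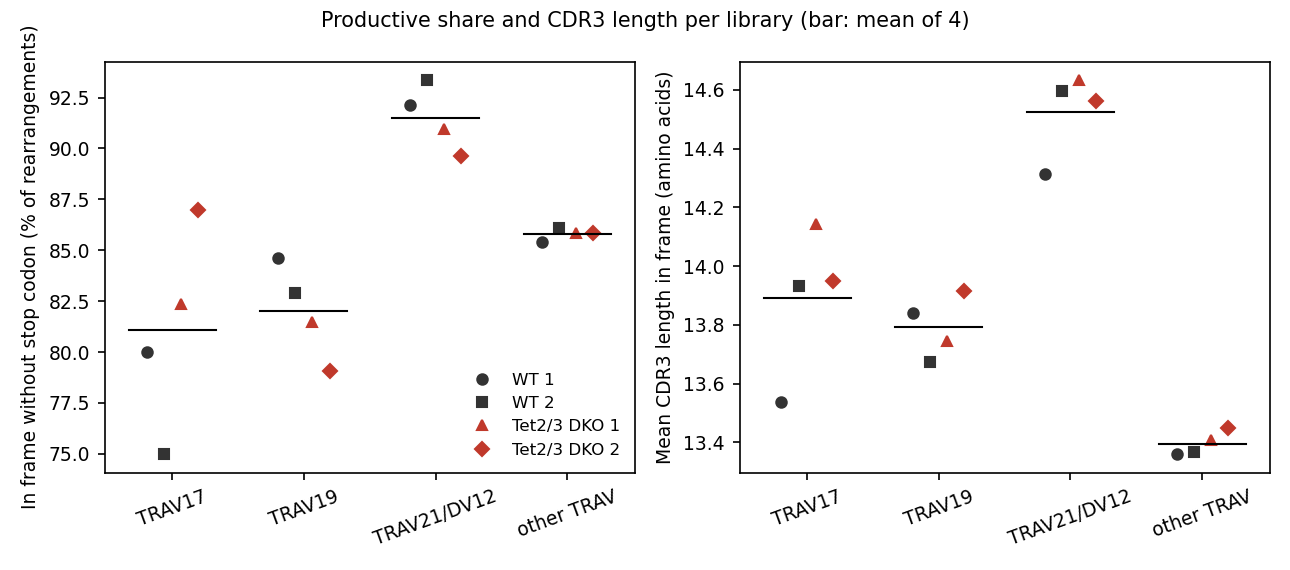
Share of distinct rearrangements in frame without a stop codon (left, %) and mean CDR3 length in frame (right, amino acids) for each segment, with 1 point per library and a line at the mean of the 4 libraries. The vertical axes do not start at 0. TRAV21/DV12 lies at 89.6% to 93.4% and 14.3 to 14.6 amino acids, above other TRAV in both.

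At the junction itself the inserted nucleotides were counted. The 3 segments carried 2.20, 2.29, 2.35 and 2.26 inserted nucleotides per in-frame junction, against 2.27 to 2.30 in other TRAV, a difference of -0.012 ± 0.0573 (SD, n = 4, exact p = 0.625). With other TRAV weighted to the J segments of the 3 segments the direction turned, to 0.117 ± 0.0659 in 4 of 4 libraries (exact p = 0.125), and without WT replicate 1 it was 0.0128. No nucleotide was inserted in 26.0% ± 1.39 of them and in 24.96% ± 0.153 of other TRAV. TRAV21/DV12 had lost 2.96 ± 0.0850 bases of its V end, TRAV19 2.04 ± 0.0749 and other TRAV 2.16 ± 0.0438. At matched J segments TRAV21/DV12 carried 0.197 ± 0.0668 inserted nucleotides more than other TRAV, in 4 of 4 libraries (exact p = 0.125).

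Some rearrangements of TRAV19 and TRAV21/DV12 were found in every library. Of the in-frame rearrangements of the 3 segments, 23.9% to 27.5% were found in at least 1 other library, against 22.7% to 25.2% for other TRAV, and weighting the other TRAV to the same J segments gave 18.6% to 20.1%. Weighting them to the same number of inserted nucleotides gave 25.8%, 23.96%, 23.5% and 23.02%, beside 27.5%, 24.4%, 24.96% and 23.9% in the 3 segments. Out of frame it was 4.95% to 6.72%, from 8 to 12 rearrangements per library, against 3.43% to 4.10%. TRAV17 was apart, with 0 to 2 of its 20 to 30 in-frame rearrangements found in another library. Many clones of other TRAV listed a further V segment, while those of the 3 segments did not. Whether such clones had the same first V segment in each library was not examined, and the shares of other TRAV may depend on it.

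In all 4 libraries there were 59 rearrangements, 38 with TRAV21/DV12 and 21 with TRAV19. Other TRAV had 1297 such in-frame rearrangements. They made up 4.41% to 6.002% of the in-frame rearrangements of a library in the 3 segments and 3.46% to 4.64% in other TRAV, and this difference was not tested. All 59 were in frame, 40 had no inserted nucleotide and 55 had at most 2, and 54 used TRAJ48 or above. The 4 with the most reads are shown, with inserted bases in capitals, because they show how little besides the V and J ends such a junction holds.
TRAV21/DV12-TRAJ57, first: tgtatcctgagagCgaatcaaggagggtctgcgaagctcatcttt
TRAV21/DV12-TRAJ57, next: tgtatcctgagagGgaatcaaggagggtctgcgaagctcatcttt
TRAV19-TRAJ58: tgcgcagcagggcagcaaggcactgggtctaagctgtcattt
TRAV19-TRAJ57: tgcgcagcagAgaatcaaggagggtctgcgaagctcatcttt

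The first had 26 and 43 reads in the WT libraries and 51 and 72 in Tet2/3 DKO, and the next had 26, 32, 44 and 44. They differ in the inserted base alone, and both were the same length. The TRAV19-TRAJ58 rearrangement had 24, 39, 27 and 52 reads and no inserted base, and the TRAV19-TRAJ57 rearrangement had 39, 19, 32 and 45.

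Use of the 3 segments was then compared between genotypes. TRAV21/DV12 held 1.93% (95% Wilson interval 1.866% to 1.996%) and 1.71% (1.65% to 1.76%) of TCRα reads in the WT libraries, and 2.04% (1.98% to 2.10%) and 3.30% (3.23% to 3.36%) in Tet2/3 DKO. Tet2/3 DKO replicate 2 stood apart, and the groups did not overlap. Its log2 ratio of Tet2/3 DKO to WT was 0.55. The exact two-sided permutation test gave p = 0.333, the smallest p that 2 against 2 libraries allow. Counted in clones, TRAV21/DV12 made up 1.91% and 1.74% in the WT libraries and 1.96% and 2.08% in Tet2/3 DKO, with a log2 ratio of 0.15, which was 0.08 without WT replicate 2.

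TRAV19 held 1.29% and 1.45% of reads in the WT libraries and 1.47% and 1.44% in Tet2/3 DKO, which overlapped, with a log2 ratio of 0.09. TRAV17 held 0.0991% and 0.0799% in the WT libraries and 0.0661% and 0.0351% in Tet2/3 DKO, from 101 to 173 reads per library. Its log2 ratio was -0.82 in reads and -0.53 in clones, and the groups did not overlap (exact permutation test, two-sided, p = 0.333). Without Tet2/3 DKO replicate 2 the log2 ratio was -0.44 in reads and -0.14 in clones, and without Tet2/3 DKO replicate 1 it was -1.35 and -1.06. The number of TRAV17 clones was 37 and 45 in the WT libraries and 40 and 24 in Tet2/3 DKO. In bulk RNA, fewer cells with a chain and less of its RNA per cell cannot be told apart.

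In the fit of edgeR over all 97 TRAV segments, 0 (0%) differed between genotypes at an adjusted p under 0.05. At an unadjusted p under 0.05 there were 3, and DESeq2 called 0. TRAV21/DV12 was one of the 3, with a log2 difference of 0.55 ± 0.23 (SE, edgeR adjusted p = 0.975). TRAV17 had -0.83 ± 0.47 (SE) and TRAV19 0.09 ± 0.15 (SE), at the same adjusted p. Without Tet2/3 DKO replicate 1, which leaves replicate 2 as the only Tet2/3 DKO library and takes it to vary like the WT libraries, 8 segments passed. TRAV21/DV12 was among them, with 0.86 (adjusted p = 0.00232). Without Tet2/3 DKO replicate 2 its log2 difference was 0.16.

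The TRAJ profile of the 3 segments was not distinguished by genotype. The pooled in-frame mean TRAJ number was 48.8 in the WT libraries and 49.1 in Tet2/3 DKO, a difference of 0.292 within overlapping libraries (exact permutation test, two-sided, p = 1). Weighted by reads, the difference was 1.45. Out of frame it was 47.1 and 47.7, a difference of 0.570, and the libraries did not overlap (exact p = 0.333). This difference was 0.322 without WT replicate 1 and 1.37 when weighted by reads. By segment the out-of-frame means were 47.6 and 48.6 in TRAV19 and 41.5 and 37.2 in TRAV17, without overlap and in opposite directions, and 47.3 and 47.1 in TRAV21/DV12, with overlap. Of 27 TRAJ segments tested in frame within the 3 segments, 0 (0%) differed between genotypes by edgeR, also at an unadjusted p under 0.05, and DESeq2 called 0. Whether the contrast with other TRAV depended on genotype was tested as an interaction, and 0 of 43 TRAJ segments (0%) passed in frame or out of frame, again also without adjustment. No other tool was run for the interaction.

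Large clones of the 3 segments were counted at 0.02% of TCRα reads or more. They numbered 7 of 264 such clones in WT replicate 1, 3 of 200 in WT replicate 2, 4 of 167 in Tet2/3 DKO replicate 1 and 17 of 298 in Tet2/3 DKO replicate 2. These were 2.65% (95% Wilson interval 1.29% to 5.37%), 1.5% (0.511% to 4.32%), 2.40% (0.935% to 5.996%) and 5.70% (3.59% to 8.94%) of the large clones, beside 3.11%, 3.12%, 3.33% and 3.34% of all clones. At this threshold the interval held the share of all clones in the first 3 libraries, and in Tet2/3 DKO replicate 2 it lay above. This depended on the threshold. From 0.01% of reads the interval held that share in Tet2/3 DKO replicate 2, with 4.45% (3.17% to 6.22%). It then lay above the share in WT replicate 1, with 4.92% (3.66% to 6.59%), and held it in the remaining libraries. From 0.05% it held the share in every library, with 5.61% (2.60% to 11.7%) in Tet2/3 DKO replicate 2. At 0.02% the large clones held 6.47% and 2.10% of the reads of the 3 segments in WT and 2.93% and 37.2% in Tet2/3 DKO. In other TRAV of the same libraries they held 13.03%, 7.57%, 6.91% and 18.4% of the reads. In the first 3 libraries the share was below that of other TRAV, and in Tet2/3 DKO replicate 2 it was above. With large clones taken from 0.01% of reads the gap in the first 3 libraries was smaller, at 20.7% against 20.8%, 10.5% against 14.5% and 11.3% against 12.95%. Between genotypes the libraries overlapped (means 4.28% and 20.1%, exact permutation test, two-sided, p = 0.667). Without Tet2/3 DKO replicate 2 the difference between genotypes was -1.35 percentage points in place of 15.8.

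Of these 31 large clones, 15 had TRAV21/DV12, 15 had TRAV19 and 1 had TRAV17. Their mean TRAJ number was 49.1, 52.3, 57 and 50.8 in the 4 libraries in order, against 25.9 to 27.7 in the large clones of other TRAV. In Tet2/3 DKO replicate 1 all 4 used TRAJ57. The single TRAV17 clone, in WT replicate 1, used TRAJ35, had 42 reads and made up 24.6% of the TRAV17 reads of that library. Among the 31, 1 was out of frame.

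The 3 in-frame rearrangements of at least 0.1% of TCRα reads and the large clone that was out of frame, all in Tet2/3 DKO replicate 2, are shown with inserted bases in capitals, because the first alone held 22.6% of the reads of the 3 segments there.
TRAV21/DV12-TRAJ58: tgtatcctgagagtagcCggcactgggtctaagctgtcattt
TRAV19-TRAJ53: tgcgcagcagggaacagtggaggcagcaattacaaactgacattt
TRAV21/DV12-TRAJ50: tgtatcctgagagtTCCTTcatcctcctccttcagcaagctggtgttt
TRAV21/DV12-TRAJ57, out of frame: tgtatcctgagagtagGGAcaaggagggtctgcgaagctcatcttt

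The TRAV21/DV12-TRAJ58 rearrangement had 3096 reads, 1.08% of all TCRα reads of its library (95% Wilson interval 1.04% to 1.11%) and 32.7% of the TRAV21/DV12 reads with a CDR3. Of these reads 2997 lay in 1 clone, which was the most abundant TCRα clone of the library. It carried 1 inserted nucleotide, with 0 bases trimmed from the V end and 8 from the J end. The rearrangement had 0 reads in the other 3 libraries, where a count of 0 allows up to 3 reads.

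The TRAV19-TRAJ53 rearrangement had 462 reads, 0.161% of TCRα reads, and no inserted nucleotide, and it was also found with 4 reads in WT replicate 1 and 6 in WT replicate 2. The TRAV21/DV12-TRAJ50 rearrangement had 370 reads, 0.129%, with 5 inserted nucleotides and 0 reads elsewhere. The out-of-frame TRAV21/DV12-TRAJ57 rearrangement had 178 reads. In the other libraries the most abundant out-of-frame rearrangement of TRAV21/DV12 had 14, 11 and 14 reads.

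In the other libraries the most abundant rearrangements were far smaller. For TRAV21/DV12 they all used TRAJ57, with 74 and 43 reads in the WT libraries and 51 in Tet2/3 DKO replicate 1, and that with 43 and that with 51 were the same rearrangement, the first of the shared ones shown above. For TRAV19 the most abundant used TRAJ43 with 100 reads in WT replicate 1, TRAJ57 with 51 in WT replicate 2 (also 51 and 58 in the Tet2/3 DKO libraries) and TRAJ57 with 63 in Tet2/3 DKO replicate 1. For TRAV17 they used TRAJ35, TRAJ53, TRAJ17 and TRAJ52, with 42, 27, 8 and 10 reads, and each was found in 1 library only.

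When the most abundant TRAV21/DV12 rearrangement of each library was left out, an alternative added after seeing the data, TRAV21/DV12 held 1.89% and 1.69% of reads in the WT libraries and 2.01% and 2.25% in Tet2/3 DKO. The groups still did not overlap, and the means were closer. Large clones then held 5.24%, 2.12%, 2.23% and 19.9% of the reads of the 3 segments.

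**Figure D5:**
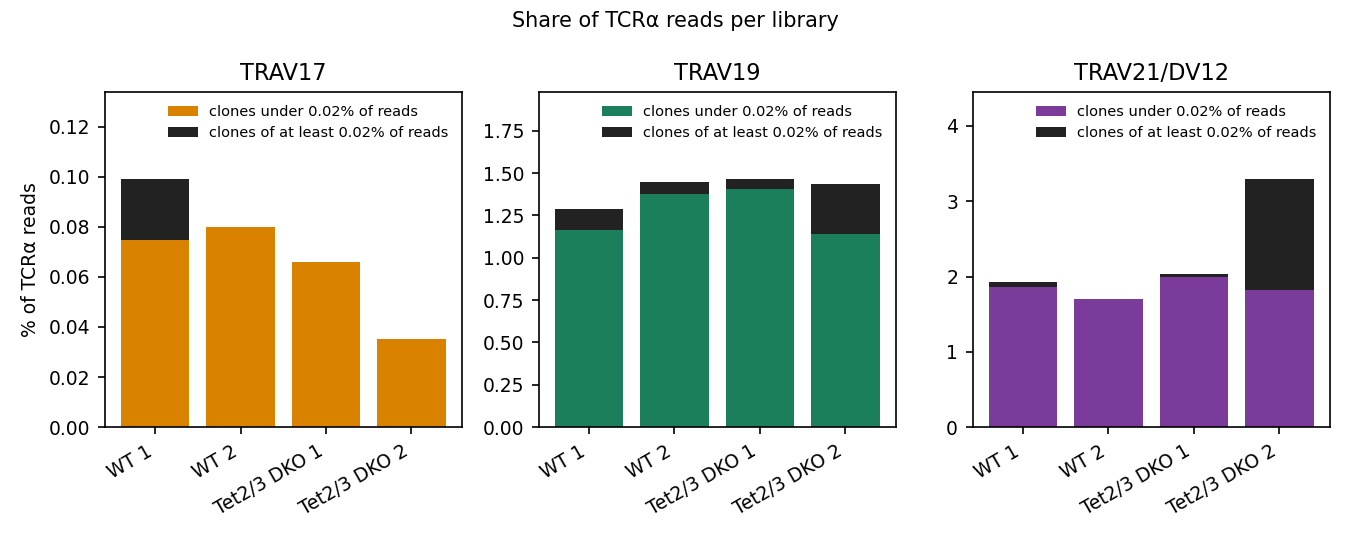
Share of TCRα reads (vertical axis, %, a separate scale per panel) held by TRAV17, TRAV19 and TRAV21/DV12 in each library, with the part in clones of at least 0.02% of TCRα reads in black. The black part is largest in TRAV21/DV12 of Tet2/3 DKO replicate 2, where the whole bar reaches 3.30%, and the TRAV17 bars run from 0.0991% down to 0.0351%.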

How the data were processed

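TCRα clones were taken from the tables of 2 WT and 2 Tet2/3 DKO splenic CD4 T cell libraries. The authors trimmed 5′ RACE reads with fastp 0.21.0, assembled clones with MiXCR 4.7.0 (mm10) and deposited the read count of each clone. The deposited fraction of reads equalled the share of the counts and served as a check only. The TCRβ tables were not used here. The 3 segments and the TRAJ groups were chosen with earlier results of these data known. Named were the 3 segments, TRAV1 and TRAV2, up to 5 rising and 5 falling TRAJ segments, the most abundant rearrangements, those of at least 0.1% of reads and the nearest profiles. TRAV18, TRAV20, the falls of TRAJ13, TRAJ21 and TRAJ23 by measured ratio and the TRAJ contrasts between TRAV19 and TRAV21/DV12 were chosen after their values were seen. Counts were tested with edgeR 4.0.16 (quasi-likelihood, at least 10 counts, Benjamini-Hochberg) and DESeq2 1.42.0, other values by exact permutation. Alternatives were other scaling, count filters, at least 2 reads per clone or rearrangement, near-identical rearrangements merged, other units and large-clone thresholds, each library left out and a replicate block. P-values measure only the spread between these libraries. On simulated data 99.5%, 100% and 81.0% of 4-fold changes were recovered for TRAV by genotype (97 segments) and TRAJ in and out of frame (44 segments each). Only segments with high counts were changed there, and the spread between libraries was set to a fixed value. Smaller changes and TRAJ by genotype were not simulated, so smaller differences by genotype could have been missed. Replicates are labelled as biological. The same replicate numbers in both genotypes did not pair the libraries in the labels.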

Additional observations from a re-analysis of the deposited data

How the results depend on the processing

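Over 22 results, 185 values were recomputed, of which 178 kept their direction and their side of the threshold, 5 changed direction, 1 count moved and 1 segment passed the threshold anew. The exact tests could not pass 0.05 under any of these settings, so for the results that rest on them only the direction was at stake. With each library left out in turn, the pooled in-frame difference in TRAJ number ranged from 20.5 to 21.0 and the out-of-frame difference from 18.8 to 19.3, and the calls of the TRAJ test from 39 to 41 in frame and from 28 to 32 out of frame. Left-out libraries changed the direction of 4 values: inserted nucleotides ranged from -0.034 to 0.0128, the in-frame mean TRAJ number by genotype from -0.182 to 0.766 (below 0 without WT replicate 1), the TRAV19 share of clones by genotype from a log2 ratio of -0.045 to 0.174 (below 0 without WT replicate 1), and the large-clone difference from -1.35 to 32.9 percentage points (below 0 without Tet2/3 DKO replicate 2, highest without Tet2/3 DKO replicate 1). Without changing direction, the out-of-frame mean by genotype ranged from 0.322 to 0.819, the productive share from 1.19 to 2.44 points, the TRAV21/DV12 share of clones from a log2 ratio of 0.08 to 0.22 and the TRAV19 share of reads from 0.0063 (without WT replicate 1) to 0.17. Calls in TRAV usage ranged from 0 to 8, the 8 without Tet2/3 DKO replicate 1, and over the other alternatives it stayed at 0. With other TRAV weighted to the J segments, added after seeing the data, inserted nucleotides differed by 0.117, the productive share by 0.385 points and CDR3 length by 0.414. Without the most abundant TRAV21/DV12 rearrangement the large-clone difference was 7.37 points. The cause was not tested.

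With the replicate number as a block, 0 TRAV segments and 0 TRAJ segments passed by genotype, and TRAV21/DV12 had a log2 difference of 0.52. Deviations of same-numbered libraries had a correlation of 0.092 over TRAV segments, and with 2 pairs the numbers were not taken to pair the libraries. TRAV17 is limited by 101 to 173 reads and 3 to 10 out-of-frame rearrangements per library.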
